A study of Drosophila melanogaster with 3 samples.

Results

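MicroRNA (miRNA) precursor genes were examined for sites of the tagged transcription factor eyegone (eyg) in Drosophila melanogaster embryos. The genes were chosen by symbol from the Ensembl annotation of the fly genome build dm6: those starting with mir-, which include bantam (mir-ban) and let-7 (mir-let7). This gave 260 precursor genes of 17683 genes on the 6 chromosome arms; 2 further precursors lie on an unplaced ribosomal DNA scaffold and were left out. Each of the 260 matched a RefSeq entry with annotated mature products. They are 50 to 174 bp long, with a median of 92 bp.

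The data are chromatin immunoprecipitation sequencing (ChIP-seq) peak lists from 1 group of 3 biological replicates, with no second condition. Every replicate came from the eyg-GFP line, which stably expresses eyg with green fluorescent protein (GFP) at its C-terminus. Each used whole embryos of both sexes aged 0 to 24 h, and an antibody against GFP. The promoter driving the fusion and the state of the native eyg gene are not stated in the labels. A whole-embryo sample mixes all cell types and stages of that day, so a site in few cells and a weak site in many cannot be told apart. The lists hold no expression values, so neither the embryo label nor the activity of any miRNA could be checked. The question is which precursors had eyg-GFP nearby, and at what strength and reproducibility.

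A miRNA is a short RNA that pairs with messenger RNAs through its seed, bases 2 to 8, and lowers their translation and stability. RNA polymerase II makes a long primary transcript, from which the nuclear enzyme Drosha, with its partner Pasha, cuts the hairpin precursor. Dicer-1 then trims it to the mature product, which is loaded into Argonaute-1. Many fly precursors sit in introns of protein-coding genes and are transcribed with their host; others have a non-coding primary transcript whose start can lie kilobases away. In the mirtron pathway a short intron is itself the precursor, with splicing replacing Drosha. Because a promoter rather than a hairpin is the usual place for a transcription factor, the start sites (TSSs) of other genes near each precursor are given beside the sites.

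The sequences below show what these hairpins make. They were read by coordinates from the RefSeq genome of dm6, 5′ to 3′, as RNA, with the seed in capitals. The first 5 are the products usually taken as the guide strand of mir-92a, mir-282, mir-375, mir-275 and mir-305, conserved miRNAs with a site; mir-275 and mir-305 share 1 site. Sequences of 5 of the 18 precursors with a site, mir-14, mir-8 and mir-308 among them, are not shown. The last 2 come from mir-9378, the intronic precursor with the highest signal among those whose site lay over 1 kb from any TSS.
mir-92a-3p: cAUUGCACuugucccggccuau
mir-282-5p: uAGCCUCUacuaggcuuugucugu
mir-375-3p: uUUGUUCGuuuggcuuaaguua
mir-275-3p: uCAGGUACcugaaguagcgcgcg
mir-305-5p: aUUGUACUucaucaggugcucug
mir-9378-5p: aGUGGAGUgagaccucgaguucgg
mir-9378-3p: gAACGGGAguuuccuccauugg
The 5 guide strands shown have 5 different seeds. The seed of mir-92a-3p is shared with mir-310, mir-311, mir-312, mir-313 and mir-92b, and that of mir-275-3p with mir-306. None of those other precursors had a site, as defined below, where 6.92% of all 260 precursors had one. Of them, mir-310 to mir-313 lie in 1 cluster and are not independent. Nothing about seed families is read from this.

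A site below is a summit of the authors' optimal list within 1 kb of the precursor. The list was derived from the pool of the 3 replicates by the irreproducible discovery rate, which compares the ranks of calls between replicates. It held 2537 peaks, all from the top of the 23721 pooled candidates, which include background. Signal is the authors' own value per peak; its scale is not stated, and no read counts are given, so depth is unknown. Intervals on shares are 95% Wilson intervals. They cover counting error only and treat precursors as independent, although 72 of the 260 sit in 20 shared loci, so they serve as a description and not as a test. No test was made over the precursors, and shares are read beside the same share over other genes or bases.

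Few precursors had an eyg-GFP site: 18 of 260 did, or 6.92% (4.42 to 10.7). Of all other genes, 17.5% had a summit within 1 kb of the gene interval, and of protein-coding genes 19.7%, but these are longer, with medians of 1745 and 2166 bp. Genes of similar length are the closer comparison. Of 591 small nucleolar, transfer and small nuclear RNA genes, median length 79 bp, 11.0% had a site. The share was 14.9% for small nucleolar RNA genes (40 of 269), 18.8% for small nuclear RNA genes (6 of 32) and 6.55% for transfer RNA genes (19 of 290), the last being next to that of the precursors. Of all bases of the arms, 3.55% lay within 1 kb of a summit.

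The 18 precursors carried 19 distinct peaks. mir-14 and mir-375 had 2 each, and mir-275 and mir-305 shared 1. Counted over loci, with precursors chained at 3 kb on 1 strand, 17 of 208 loci had a site (8.17%, 5.17 to 12.7). Of the 20 loci of 2 or more precursors, 1 had a site, that of mir-275 and mir-305. By arm, 2L had 5 of 56, 2R 5 of 55, 3L 2 of 31, 3R 3 of 58, X 3 of 58 and the small chromosome 4 had 0 of 2. The intervals overlap, such as 3.95% to 19.6% for 2R and 1.77% to 14.1% for X. No share over other genes was taken by arm, and no difference between arms is read.

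Leaving out a replicate was approximated by keeping optimal summits that lay inside one of the 2537 highest calls of both other replicates. The count was then 12 without replicate 1, 8 without replicate 2 and 11 without replicate 3. This asks more of each remaining replicate than the optimal list does: it kept 70.0%, 65.7% and 65.4% of all optimal peaks, and 11, 8 and 11 of the 19 at precursors.

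**Figure D1:**
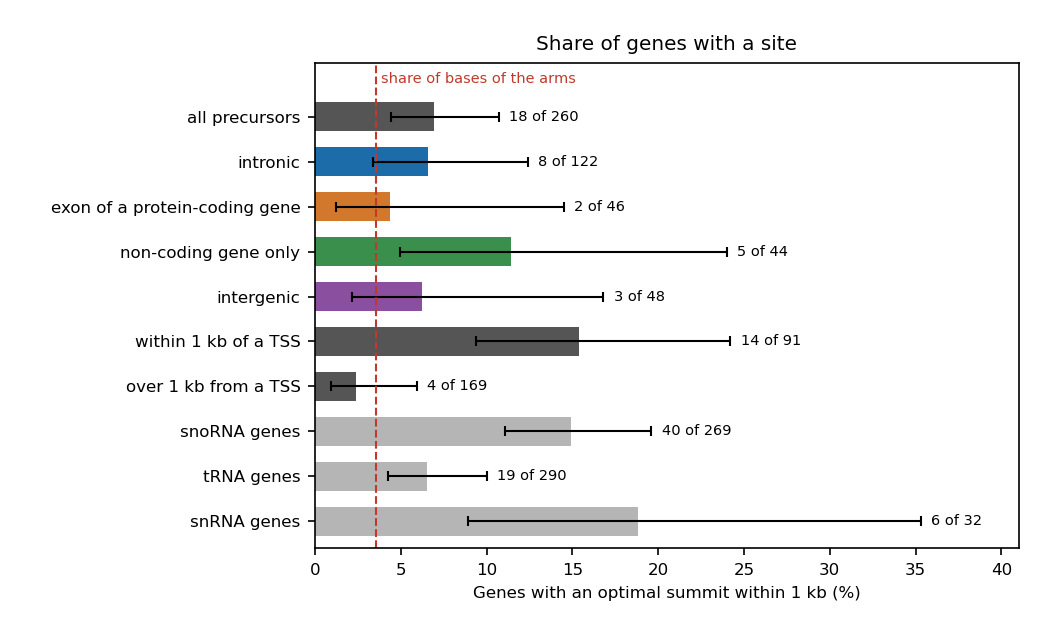
Percent of genes with an optimal summit within 1 kb (bars) with 95% Wilson intervals (lines) for all miRNA precursors, the 4 classes of position, precursors near to and far from a TSS, and 3 classes of other small RNA genes; the dashed line is the 3.55% of bases of the arms within 1 kb of a summit. The share was 15.4% for precursors within 1 kb of a TSS and 2.37% for those farther away; the difference was not tested.

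Shares were described by the position of the precursor in other genes and by its distance from a TSS, and no difference between these classes was tested. Intronic precursors, which lie in a protein-coding gene and touch none of its exons, had a site in 8 of 122 cases (6.56%, 3.36 to 12.4). Intron bases lay within 1 kb of a summit in 3.83%. Intergenic precursors, which overlap no other gene, had 3 of 48 (6.25%, 2.15 to 16.8), where 2.29% of bases between genes did. Those in an exon of a protein-coding gene had 2 of 46 (4.35%, 1.20 to 14.5), and those inside non-coding genes only had 5 of 44 (11.4%, 4.95 to 24.0). No order among the classes is read from these counts. All 8 intronic precursors with a site were transcribed in the direction of a host, 8 of 100 such precursors. Of the 22 without a host on their own strand, 0 had one, which allows a share of up to 14.9%. Precursors that fill a spliced intron, the arrangement of mirtrons, had 1 site in 34 (2.94%, 0.521 to 14.9), at mir-2501. Both ends had to lie within 5 bp of the ends of the same intron, so precursors that abut a single edge are not counted here.

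Within 1 kb of an annotated TSS of another gene, 14 of 91 precursors had a site (15.4%, 9.39 to 24.2). Farther away it was 4 of 169 (2.37%, 0.924 to 5.93). Of bases, 9.87% of those within 1 kb of a TSS and 1.62% of those farther away lay within 1 kb of a summit. As a gene-level reference, 14.7% of protein-coding genes had a summit within 1 kb of a TSS. For precursors inside non-coding genes only, the counts were 5 of 18 near a TSS and 0 of 26 farther away. For intronic ones they were 5 of 39 and 3 of 83, and for intergenic ones 2 of 19 and 1 of 29. Sites at the start of a host were counted apart, whatever their distance from the hairpin. Of 106 protein-coding hosts of intronic precursors, 41 had a summit within 1 kb of any of their TSSs (38.7%). So did 8 of the 32 non-coding genes that overlap a precursor of the class inside non-coding genes only. Hosts were not matched to other genes by length or number of TSSs, and no share over other non-coding genes was taken. No enrichment at hosts is therefore read from these counts.

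The strongest summit lay upstream of the hairpin, in its direction of transcription, for 15 of the 18 precursors, inside it for 2 (mir-4962, mir-9373) and downstream for 1 (mir-92a). Other small RNA genes with a site had the summit upstream in 49 of 65 (75.4%). For 82 precursors without a site, the highest pooled candidate within 1 kb was upstream in 42 (51.2%), inside in 5 and downstream in 35. The TSS nearest to the strongest summit was upstream of the precursor for 14 of the 18. For the other 4, mir-92a, mir-275, mir-305 and mir-2491, it was downstream. By annotation, 6 strongest summits lay between genes, 5 in exons of non-coding genes, 4 in introns and 3 in 5′ UTRs.

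**Figure D2:**
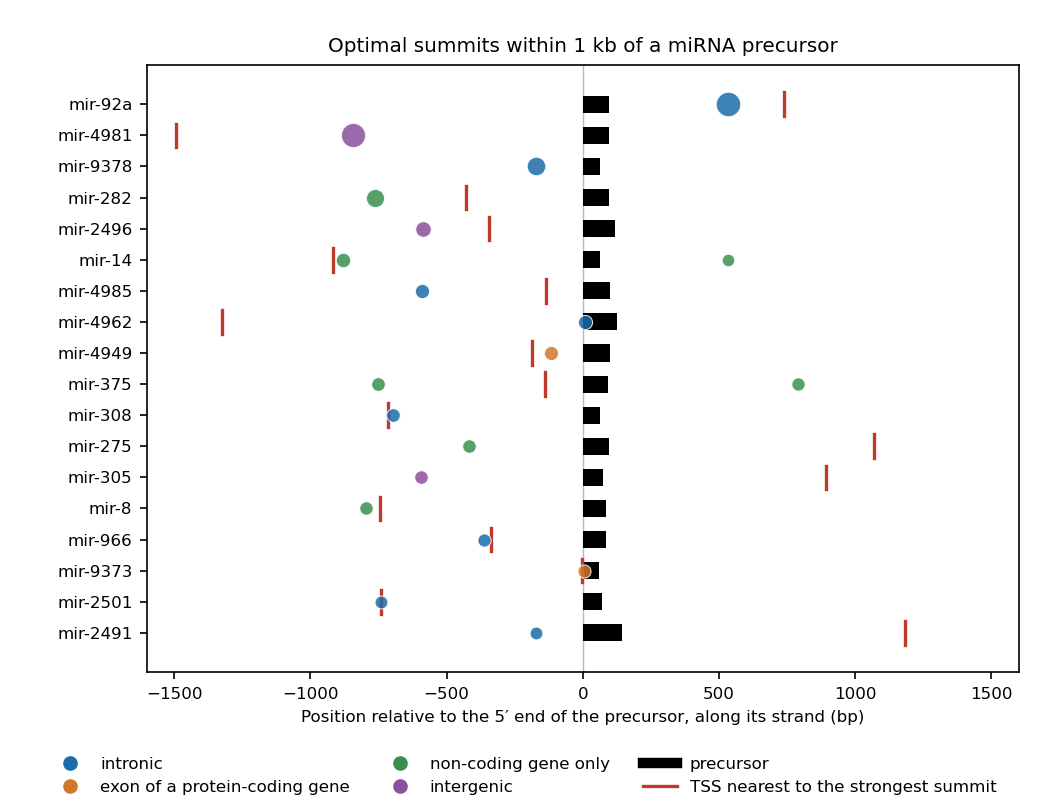
Position of each optimal summit (circles, area in proportion to pooled signal, colour by position class of the precursor) along the strand of the precursor (black bar), in bp from its 5′ end; red ticks mark the TSS nearest to the strongest summit. Most summits sit to the left, upstream, and the strongest summits of mir-308, mir-966, mir-2501, mir-8, mir-14 and mir-9373 lie within 52 bp of a TSS; the tick of mir-9378, at 4387 bp upstream, is outside the plot.

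Signal at precursors was mostly in the lower part of the optimal list. It ran from 109.0 to 414.2 with a median of 129.8 over the 19 peaks, beside 108.3 to 2151 with a median of 156.2 over all 2537, and 5 of the 19 exceeded the latter median. All 19 had a call in each of the 3 replicate lists. Of the 19, 12, 15 and 13 were among the 2537 highest calls of replicates 1, 2 and 3, and 8 were so in all 3 replicates, beside 57.9% of all optimal peaks. A further 6 were so in 2 replicates, 4 in 1, and the weaker site of mir-375 in 0. Summits near precursors were within 1 kb of a TSS of another gene in 14 of 19 cases, beside 67.0% of all optimal peaks.

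**Figure D3:**
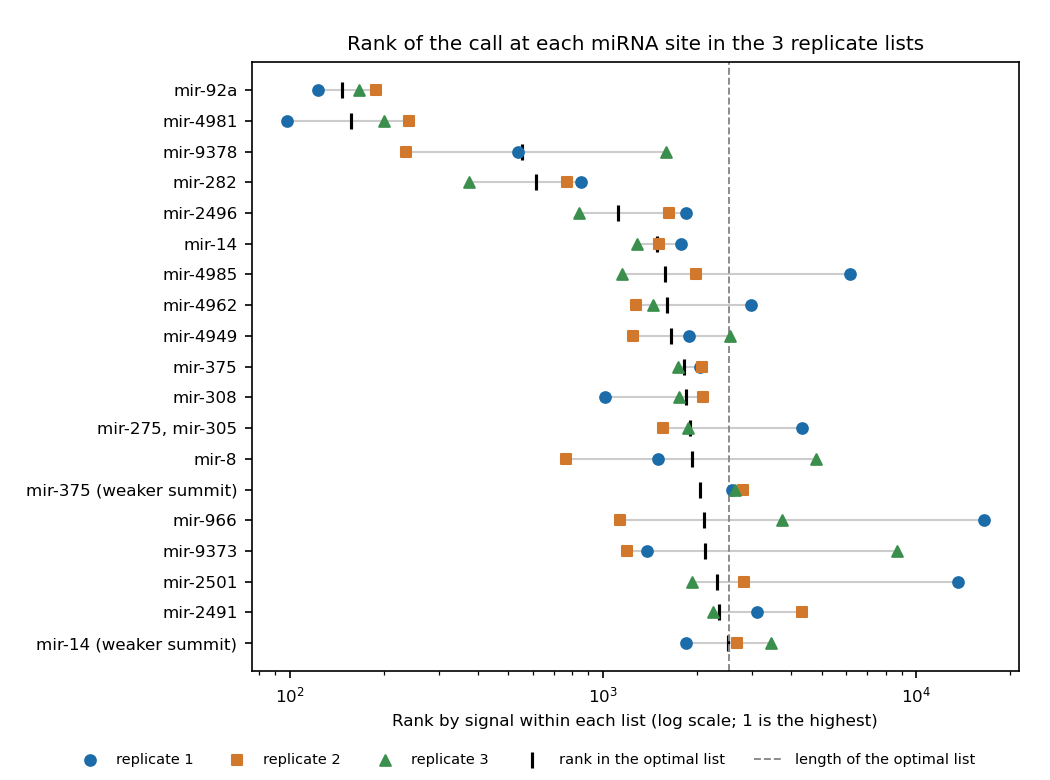
Rank by signal of the call at each of the 19 peaks in replicate 1 (circle), replicate 2 (square) and replicate 3 (triangle), on a log axis where 1 is the highest, with the rank in the optimal list (black bar); the dashed line marks rank 2537. The peaks of mir-92a and mir-4981 rank between 98 and 241 in every replicate, while mir-966 spans ranks 1136 to 16461.

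The conserved miRNAs made from a non-coding primary transcript come first. mir-282, which targets the adenylate cyclase gene rutabaga in flies, lies at chr3L:3251022-3251118 on the plus strand inside lncRNA:CR43626. Its site was 764 bp upstream, in an exon of that RNA and 336 bp from the nearest of its annotated TSSs. The pooled signal was 227.8 (rank 613), and the replicates gave 53.8, 72.4 and 111 (replicates 1 to 3 in order, here and below). Their ranks were 850, 770 and 374, so all 3 were well inside the 2537 highest.

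mir-14, known for limiting cell death and for its part in fat and insulin metabolism, lies at chr2R:9553762-9553824 on the plus strand inside lncRNA:CR43651, which RefSeq also calls pri-mir-14. Its stronger site was 879 bp upstream and 39 bp from the TSS of that primary transcript. The pooled signal was 144.6 (rank 1486), with 38.9, 52.7 and 60.2 in the replicates, each among the 2537 highest of its list. The weaker site lay 470 bp downstream between genes, 1450 bp from that TSS, with a signal of 109.0 (rank 2507) and replicate values of 38.5, 39.5 and 35.5. Only in replicate 1 was it among the 2537 highest.

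mir-8, the fly relative of the mammalian miR-200 family and a regulator of growth, lies at chr2R:16831432-16831518 on the plus strand inside lncRNA:CR43650, also called pri-mir-8. Its site was 795 bp upstream and 52 bp from the nearer annotated TSS of the primary transcript, with a signal of 125.8 (rank 1931). The replicates gave 42.0, 73.2 and 29.9, at ranks 1496, 762 and 4785, so that replicate 3 fell well outside the 2537 highest. mir-14 and mir-8 thus had summits near annotated starts of their own primary transcripts.

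mir-375, whose mammalian counterpart is known from pancreatic islets, lies at chr2L:857542-857632 on the plus strand inside lncRNA:CR45345. Its 2 sites flank the hairpin. The upstream one, 751 bp away and 612 bp from the TSS of that RNA, had a signal of 129.8 (rank 1814), and replicates of 36.8, 44.8 and 51.7. The downstream one, 699 bp away in an exon of the RNA, had 122.3 (rank 2043), and replicates of 33.3, 38.6 and 40.9. The ranks of the upstream call, 2043, 2080 and 1733, were close together in the replicates.

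mir-275 and mir-305 are neighbours on the plus strand, at chr2L:7425795-7425892 and chr2L:7425972-7426044; mir-305 acts on Notch and insulin signalling in intestinal stem cells of the fly. mir-275 lies inside lncRNA:CR43857, and mir-305 overlaps no other gene in the annotation. They shared a site 417 and 594 bp upstream, in an exon of that RNA but 1558 bp from its TSS. Its signal was 126.8 (rank 1897), with 27.2, 51.8 and 49.8 in the replicates. Replicate 1, at rank 4322, was the low one.

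The strongest site of all was at an intronic precursor. mir-92a, a member of the miR-92 family that acts in neural progenitors, lies at chr3R:25646506-25646600 on the plus strand in an intron of jigr1, its host gene. The summit was 439 bp downstream of the hairpin, still in an intron, and 207 bp from an internal jigr1 TSS. Its signal of 414.2 ranked 147 in the optimal list, and the replicates gave 121, 132 and 156 at ranks 123, 189 and 167. No replicate stood apart. mir-92b, at chr3R:25651398-25651497 and overlapping an exon of the same host, was 4359 bp from that summit and had a pooled candidate of 86.95 (rank 3865) at 473 bp, with replicate values of 40.1, 18.1 and 29.4.

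The other intronic sites were weaker, and 4 of them lay within 456 bp of a TSS of the host. mir-308, in RpS23, a ribosomal protein gene, had its summit 696 bp upstream and 18 bp from the TSS of the host. The signal was 128.6 (rank 1846) and the replicates 49.7, 44.7 and 51.5. mir-966, in Pfas, a purine synthesis gene, had its summit 26 bp from the host TSS and 363 bp upstream of the hairpin. The signal was 120.4 (rank 2108), and the replicates disagreed: 16.5, 59.7 and 34.0, at ranks 16461, 1136 and 3730. mir-2501, which fills an intron of Nulp1, had its summit 2 bp from the host TSS and 741 bp upstream, with a signal of 114.0 (rank 2312). Its replicates gave 17.7, 38.4 and 49.0, and only replicate 3 was among the 2537 highest. mir-4985, in Fatp3, related to fatty acid transport proteins, had its summit 590 bp upstream of the hairpin and 456 bp from the host TSS. The signal was 139.9 (rank 1579) and the replicates 23.8, 45.7 and 64.5, with replicate 1 at rank 6147.

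The remaining intronic sites were over 1 kb from any TSS. mir-9378, at chr2L:10751877-10751938 on the minus strand in CG17124, had its summit 172 bp upstream and 4215 bp from the nearest TSS. Its signal was 239.3 (rank 552), and the replicates gave 66.4, 121 and 54.0, all among the 2537 highest. mir-2491, which lies in introns of both CG42346 and fog, the gene of a secreted ligand for gastrulation, had its summit 170 bp upstream and 1354 bp from a CG42346 TSS. The signal was 113.1 (rank 2352) and the replicates 30.9, 31.5 and 44.8, of which only replicate 3 was among the 2537 highest. mir-4962, in an intron of the kinase gene Tlk, had its summit inside the hairpin itself, 1330 bp from the Tlk TSS. The signal was 138.6 (rank 1608) and the replicates 31.5, 56.7 and 56.9.

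The precursor of mir-4962 is shown because its summit fell on base 8 of it. It is chrX:3777382-3777505, plus strand, as DNA of the RefSeq copy of dm6, with its annotated mature products in capitals.
mir-4962 precursor: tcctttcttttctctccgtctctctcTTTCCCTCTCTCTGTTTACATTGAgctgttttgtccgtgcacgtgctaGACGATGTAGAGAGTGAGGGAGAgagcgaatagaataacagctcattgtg
The letters GAGAG, or CTCTC on the other strand, occurred 8 times with overlaps counted in the 201 bp around this summit.

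Precursors in exons of protein-coding genes and between genes make up the rest. mir-4949 overlaps an exon of ATPsynC, a subunit gene of the mitochondrial ATP synthase, and its summit was 116 bp upstream in a 5′ UTR, 71 bp from the TSS. Its signal was 136.8 (rank 1653) and the replicates 38.0, 57.2 and 41.8. mir-9373 lies at the start of CG6231, with the summit on its base 6 and 8 bp from the TSS. Its signal was 119.7 (rank 2124), and the replicates ranged from 43.6 and 58.5 down to 22.7 in replicate 3, at rank 8682. Here the hairpin and the start of the coding gene occupy the same bases, so the site cannot be told apart from one at the gene. Between genes, mir-4981 at chr2R:8015249-8015343 had the second strongest site, 845 bp upstream and 649 bp from the TSS of CG14762. Its signal was 402.6 (rank 157), with 137, 119 and 143 in the replicates. mir-2496, on X, had a site 586 bp upstream, 243 bp from the TSS of lncRNA:CR45478 and 350 bp from that of PIG-K, a gene of the GPI-anchor transamidase. Its signal was 167.3 (rank 1116), and the replicates gave 38.4, 50.5 and 77.5.

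The limit of 1 kb had precursors close to it on both sides, not all of the same position class. Just inside, by their nearest summit, were mir-282 at 764 bp, mir-8 at 795 bp and the intergenic mir-4981 at 845 bp. Just outside were the intronic mir-2493 at 1075 bp (signal 115.8), mir-279 at 1120 bp and the intronic mir-967 at 1226 bp (133.8). mir-279, which acts in the specification of carbon dioxide sensing neurons, is at chr3R:29215585-29215684 inside lncRNA:CR31044, also called pri-mir-279_mir-996. The summit was 97 bp from the TSS of that primary transcript and had a signal of 772.3 (rank 38), above every site within 1 kb of a precursor. The replicates gave 190, 275 and 303, at ranks 43, 32 and 37. At 2 kb the count became 27, with mir-279, mir-ban, mir-277, mir-2283, mir-2493, mir-281-1, mir-281-2, mir-955 and mir-967 gained.

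Of a fixed list of miRNAs known from fly development, mir-8 and mir-14 had a site, as given above, and the others did not. Over all precursors 6.92% had one. The list is short and was picked by hand, so no difference is read from it. bantam, which promotes growth and blocks cell death, was 1430 bp from a summit of 199.5 (rank 812) that lay in an exon of its primary transcript lncRNA:CR43334, 1064 bp from its nearest annotated TSS. The replicates there gave 48.0, 75.3 and 76.6. Within 1 kb bantam had a pooled candidate of 103.0 (rank 2786), the highest of any precursor without a site, whose call ranked higher in replicate 1 (917) than in replicates 2 and 3 (4823 and 5313). mir-9a, a regulator of sense organ number, was 4357 bp from a summit of 203.1 and had a candidate of 58.00, with no call in replicate 3. mir-1, the muscle miRNA, was 72411 bp from a summit and had a candidate of 41.61. let-7, a timer of late development, was 133016 bp away, mir-7, known from the eye, 17360 bp and mir-iab-4 of the Hox complex 57399 bp, and none of these 3 had a pooled candidate within 1 kb.

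By family, the let-7 complex had 0 sites in 3 precursors, the mir-309 cluster, active at the onset of zygotic transcription, 0 in 8, and the Hox cluster precursors mir-10, mir-iab-4 and mir-iab-8 had 0 in 3. None of these 14 had a pooled candidate either. Over all precursors the shares were 6.92% for a site and 38.5% for a pooled candidate. The 14 are not independent: the let-7 complex lies in 1 non-coding gene and the mir-309 cluster in another. mir-iab-4 and mir-iab-8 occupy the same bases on opposite strands. The mir-310 cluster had 0 in 4, all within 1 kb of the same pooled candidate, and the mir-34, mir-277 and mir-317 cluster 0 in 3. The K box family, which binds a short repressive element in Notch target messages, had 1 in 13, mir-308; its mir-6 precursors are also in the mir-309 cluster. Of 9 precursors known from the eye and sense organs, mir-8 and mir-14 had a site, and these 2 with bantam, mir-9a, mir-279 and mir-996 had a pooled candidate.

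The pooled candidates, of which the optimal peaks are the highest, were also counted. A pooled candidate lay within 1 kb of 100 of 260 precursors (38.5%, 32.8 to 44.5), of which 18 had an optimal site and 82 did not. The same was true of 63.3% of other genes, of 56.2% of the 591 small RNA genes and of 26.8% of the bases of the arms. The share was 41.0% for intronic precursors, 34.8% for exonic, 36.4% for those in non-coding genes only and 37.5% for intergenic ones. In the replicate lists a call lay within 1 kb of 40.4% ± 1.76 of precursors (SD, n = 3 replicates) and 67.9% ± 2.77 of other genes. For the 2537 highest calls of each replicate, the shares were 6.03% ± 0.801 and 17.5% ± 0.376. Of the 242 precursors without a site, 89 had no call within 1 kb in any replicate, 79 had one in 1 replicate, 40 in 2 and 34 in all 3. The pooled candidates of 82 of them had signals from 37.65 to 103.0 with a median of 48.60.

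After bantam, the highest candidates without a site were at mir-4955, mir-4975, mir-92b and mir-3643. mir-4955 overlaps trol, the perlecan gene, and its candidate of 93.12, 14 bp from a trol TSS, had its highest value in replicate 2 (20.9, 46.9 and 22.8). mir-4975 had 88.06 in a 5′ UTR, 92 bp from a CG45092 TSS, with replicates of 27.1, 29.3 and 35.6. mir-3643, in an intron of OstDelta, had 86.45 with replicates of 25.1, 33.4 and 29.5.

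The distance from a precursor to the nearest optimal summit had a median of 16942 bp, with quartiles of 5992 and 43548 bp. The median was 13140 bp for other genes and 10712 bp for the other small RNA genes. It was 14785 bp for intronic precursors, 10762 bp for exonic ones, 9024 bp for those in non-coding genes only and 39277 bp for intergenic ones. Clustered precursors share 1 distance, so the medians were also taken over loci, where they were 13480, 10726, 10122 and 38441 bp. Intergenic precursors had the largest median of the 4 classes by either measure. They include mir-10404-3, mir-10404-4 and mir-10404-5 on X, which were kept and lay 194378, 280669 and 527434 bp from a summit. mir-10404-3 and mir-10404-4 are each 31 bp from the TSS of an annotated 5.8S ribosomal RNA entry. Whether peaks can be called in such sequence was not tested.

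**Figure D4:**
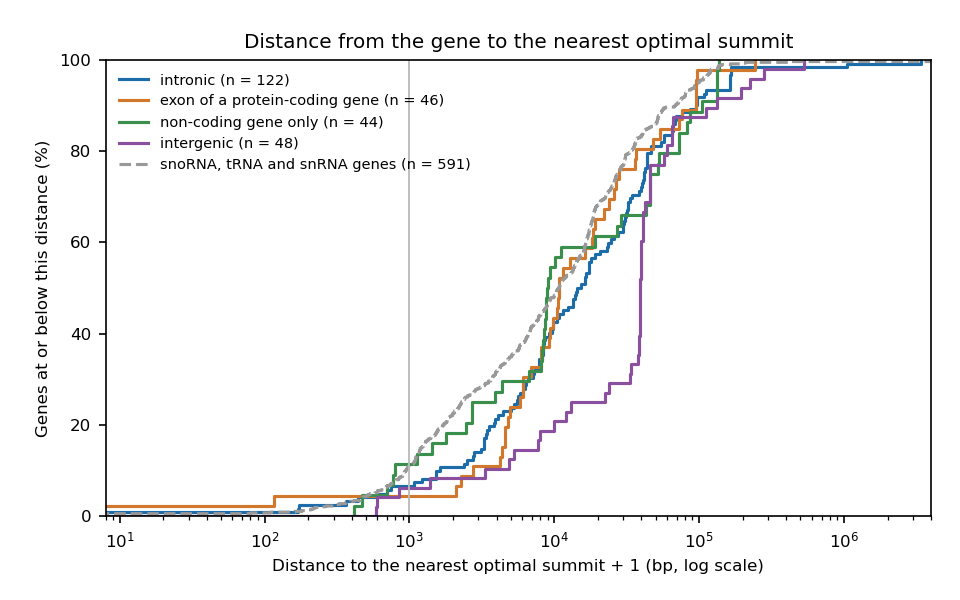
Cumulative percent of precursors of each position class, and of snoRNA, tRNA and snRNA genes (dashed), against the distance to the nearest optimal summit plus 1 bp, on a log axis; the grey line marks 1 kb. The medians run from 9024 bp for precursors in non-coding genes only to 39277 bp for the 48 intergenic ones, whose curve rises steeply near its median.

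In all, 6 short motifs were searched on both strands within 100 bp of each summit, as a description of the letters and not of binding. TATCGATA, the DREF motif, and TAATTA are their own reverse complements. GAGAG, the core of the GAGA factor motif, was in 6 of the 19 windows at precursors (31.6%) and in 25.5% of all 2537: at mir-8, mir-4985, mir-4962, mir-275 with mir-305, and both summits of mir-14. TAATTA, the core of many homeodomain motifs, was in 3 (15.8%) beside 13.7%, at mir-2496, mir-2491 and mir-4985. CAGCTGTT, a letter string with an E-box core, was in 1 (mir-9373) beside 4.61%, and there it ran into its own reverse complement. GGTCACACT, a core promoter motif, was in 1 (mir-308) beside 1.93%. TATCGATA and CAGGTAG, the latter bound by Zelda, were in 0, beside 4.22% and 0.867%. The share of G and C in the windows had a median of 42.8% at precursors and 37.8% over all optimal summits.

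Genes of the miRNA machinery were looked at by their TSSs. Of 9, 4 had a summit within 1 kb of a TSS, beside the 14.7% of protein-coding genes given above. gw, whose protein carries out silencing with Argonaute-1, had a summit 125 bp away with a signal of 223.8 (rank 643), and the replicates gave 61.7, 80.9 and 81.0. Ranbp21, the fly Exportin-5, had one at 27 bp with 118.5 (rank 2150), and replicates of 34.4, 21.2 and 66.4. AGO1 had one at 132 bp with 161.7 (rank 1191), although the TSS of CG33155 was nearer, at 38 bp. Tailor, which adds uridines to hairpins, had one at 577 bp with 247.3 (rank 513), although that of alphaTub84B was nearer, at 61 bp. drosha, pasha, Dcr-1, its partner loqs, and Nbr, which trims miRNA ends, had none within 1 kb. The nearest summits were 46426, 1786, 9611, 4759 and 4441 bp from their TSSs. The one nearest to pasha had a signal of 521.6 (rank 90) and lay 31 bp from the TSS of Mnat9.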

How the data were processed

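The authors deposited narrowPeak lists on dm6 for each replicate, the pool and the optimal list, per the listings deposited with each library. Per the same listings, the authors called peaks against a control in each replicate and in the pool, and each call has a signal value (scale not stated), a −log10 q-value and a summit offset. Aligner and caller: not given in the sources used here. Chromatin fragments were 200 to 800 bp, per the labels. The dm3 lists and the control library named in the labels were not used here.

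Summits were column 2 plus column 10, plus 1. Genes came from Ensembl release 115 (BDGP6 annotation 6.54), without transposable elements and 481 separate mature miRNA entries, and mature products and sequence from RefSeq on the same assembly. Distances were measured from the summit to the gene interval. Splice-edge precursors had both ends within 5 bp of the ends of the same intron. Python 3.11.15, numpy 2.4.6, scipy 1.17.1 and matplotlib 3.10.9 were used. The site search was tested on simulated data. The named precursors were those with a site, the 3 on each side of the limit, a list of known miRNAs and the 5 highest pooled candidates without a site. The precursors and lists were chosen with earlier results of these data known. Alternatives covered the distance, the point measured, signal, q-value, chaining and leaving out replicates. The depth per sample is unknown.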

Additional observations from a re-analysis of the deposited data

How the results depend on the processing

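No paired analysis was possible because the 3 replicates form 1 group. Of 46 alternatives, 27 kept their value within 1.5 times. At 500 bp, 9 precursors in 9 loci had a site, with 5 intronic and 0 intergenic. In the upper 50% of peaks by signal, 5 precursors in 5 loci had one, with 2 intronic, and the median signal of their peaks was 239.3. At 2 kb, 27 precursors had one, 13 of them intronic. Measured from the peak interval the count was 20, from the precursor's 5′ end 18, and over pooled candidates with a −log10 q of 2 or more 19. Of the machinery genes, 7 had a summit in the gene or within 2 kb. No optimal list of fewer replicates could be made; leaving each out, as approximated above, gave 8 to 12 precursors, 8 to 11 loci, 3 to 5 intronic and 2 to 3 intergenic precursors, and a median signal of 144.6 to 197.6. mir-2491, mir-2501 and mir-966 were lost each time. All shorter distances and stricter lists lower the count by construction. Depth is unknown, so how far it limits weak sites cannot be stated.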

Other observations

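The window around the strongest site, downstream of mir-92a, held the complement of the seed of that same miRNA more than once. The seed of mir-92a-3p is AUUGCAC, and its complement GTGCAAT occurred 3 times in the 201 bp around the summit. The window is chr3R:25646939-25647139, plus strand, in an intron of jigr1, with the matches in capitals.
mir-92a window: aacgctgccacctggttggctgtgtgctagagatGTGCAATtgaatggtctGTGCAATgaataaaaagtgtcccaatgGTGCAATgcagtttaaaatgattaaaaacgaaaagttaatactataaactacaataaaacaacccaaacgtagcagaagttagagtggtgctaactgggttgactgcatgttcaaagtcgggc
Of the 2537 windows of the same length around optimal summits, 83 (3.27%) held this heptamer on either strand and 1 held it 3 times or more, which is this window. The pattern was noticed after the sequence had been seen. Over the 35 pairs of a mature product and a window of its own site that does not overlap the hairpin, 2 had a match on either strand. They were this one and the 5p product of mir-375, whose seed complement GCCCAAG is in 1.18% of all windows. The 2 are unlike in strand. The matches at mir-92a lie on the strand of the precursor, whereas at mir-375 GCCCAAG occurred once, on the opposite strand. No use of these letters by the factor or by the miRNA was tested.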
